A study of Homo sapiens with 6 samples.

Results

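The 9 genes described here encode the classical cadherins CDH1, CDH2, CDH3 and CDH5, the related CDH13, the catenins CTNNA1, CTNNB1 and CTNND1, and the epithelial adhesion molecule EPCAM. They were taken by symbol from the deposited expression table, and 9 of 9 were found among its 17110 genes. The study compared sphere cells of CAL-27, obtained in suspension culture as a way to isolate cancer stem cells, with the adherent parental cells. CAL-27 is an established line of human tongue squamous carcinoma. RNA-seq libraries numbered 6, of which 3 were sphere and 3 were parental, and no treatment, genetic change, medium or time in culture was named for either group. The table heads 3 of its columns Control, and these were taken as the parental libraries. The labels do not say whether the libraries of a group came from separate cultures, and the p-values below therefore reflect library-to-library spread that could be purely technical.

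Cadherins are calcium-dependent adhesion molecules that bind their own kind on the neighbouring cell. Inside the cell the tail of a classical cadherin holds CTNND1 (p120-catenin), which keeps the cadherin at the membrane, and CTNNB1 (beta-catenin) or its relative JUP (plakoglobin). CTNNA1 (alpha-catenin) binds beta-catenin and couples the complex to actin. In carcinomas, exchange of CDH1 (E-cadherin) for CDH2 (N-cadherin) is known as the cadherin switch and accompanies a mesenchymal state, while stratified squamous epithelium carries CDH1 together with CDH3 (P-cadherin).

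Values were TPM, transcript abundance per length scaled to the same total in each library, so levels can be set side by side between genes but the sequencing depth is unknown. Each library listed 15045 to 15448 genes above 0. The libraries of a group correlated across tested genes at r = 0.995 to 0.997 on log2(TPM + 1), and libraries of different groups at r = 0.84 to 0.842 (genes are not independent replicates). Differences between the groups were the rule: limma, run on 12261 genes, called 83.4% of them at a Benjamini-Hochberg adjusted p of 0.05, and 35.1% were called up and 48.2% down in spheres. The groups did not overlap for 84.6% of genes. All 6 markers of squamous epithelium were higher in sphere libraries. Among them KRT5, a basal keratin, was at 5996 ± 49 TPM in sphere and 721.7 ± 30.5 TPM in parental libraries (SD, n = 3 each). TP63, the squamous master regulator, was at 156.1 ± 10.2 TPM in sphere and 65.49 ± 1.24 TPM in parental libraries.

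Of the 9 genes, 4 were higher in sphere libraries (CDH1, CDH3, CDH13, CTNND1), 4 were lower (CDH2, CDH5, CTNNB1, EPCAM) and CTNNA1 did not pass. The groups did not overlap for 8 of 9. With 83.4% of all tested genes past the threshold, these shares lie near the background. The sizes differ between the genes, and the descriptions below rest on them. All 9 were tested, but CDH2 and CDH5 passed the filter on low values only through their parental level. These 2 had to differ, so their calls and the counts that hold them are descriptions. In bulk RNA, fewer cells with a transcript and less of it per cell cannot be told apart.

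**Figure D1:**
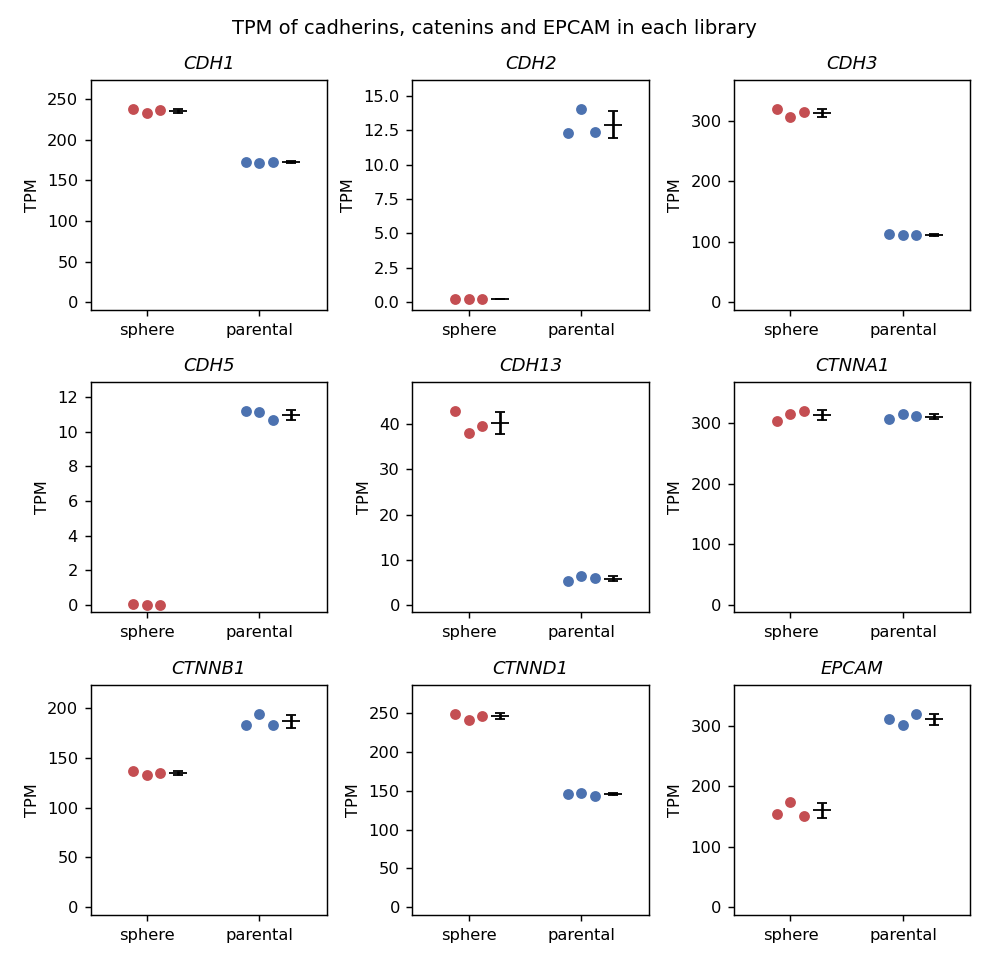
TPM of the 9 genes in the 3 sphere (red) and 3 parental (blue) libraries, with a panel and a linear axis from 0 for each gene. Each point is a library, and the black mark with its bar gives mean and SD (left out for CDH5 in sphere libraries, which hold values listed at 0). CDH2 and CDH5 lie near 0 in sphere libraries and at 10.66 to 14.06 TPM in parental libraries, and only the CTNNA1 points overlap.

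The GRCh38.p14 promoter table of RefSeq holds 300 bases per transcript start, 250 before it and 50 from it on, and matched 3 of the 9 genes: CDH2, CTNNA1 and CTNNB1. The entries of the upstream starts of CDH2 and CTNNA1 are shown because these genes contrast in level: CDH2 was almost absent from sphere libraries, and CTNNA1 was abundant in both groups. CDH2 lies at chr18:28177081-28177380 on the minus strand and CTNNA1 at chr5:138753175-138753474 on the plus strand. Both are written 5′ to 3′ on the strand of the gene, with capitals for GC boxes (GGGCGG) and CCAAT boxes (CCAAT) on either strand.
CDH2: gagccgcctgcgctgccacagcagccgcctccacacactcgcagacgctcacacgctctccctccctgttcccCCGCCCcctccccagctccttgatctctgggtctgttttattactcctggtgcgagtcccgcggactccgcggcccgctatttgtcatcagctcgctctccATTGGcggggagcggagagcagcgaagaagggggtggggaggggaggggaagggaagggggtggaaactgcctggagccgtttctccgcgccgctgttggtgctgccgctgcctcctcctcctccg
CTNNA1: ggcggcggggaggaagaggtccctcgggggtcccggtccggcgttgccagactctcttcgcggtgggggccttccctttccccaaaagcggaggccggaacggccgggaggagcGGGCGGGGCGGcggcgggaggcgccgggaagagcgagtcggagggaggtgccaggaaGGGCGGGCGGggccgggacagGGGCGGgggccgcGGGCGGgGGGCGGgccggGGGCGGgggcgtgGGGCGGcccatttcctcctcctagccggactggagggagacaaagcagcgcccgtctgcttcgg
The CTNNA1 window was 77.7% G and C and held the GC box 9 times, some copies overlapping. The CDH2 window was 67% G and C, with 1 GC box and 1 CCAAT box. Of 35116 such promoter windows, 45% held a GC box and 34.6% a CCAAT box. The E-box CACCTG, the motif of SNAIL, ZEB and TWIST factors, is in 20.6% of windows and in neither of these, and the TATA box TATAAA is in 11.5% and in neither. Both genes have other starts with other motifs. The other CDH2 window held TATAAA and no GC box, at 40.7% G and C. The CTNNA1 window listed last held TATAAA and no GC box, at 44.7% G and C. Matches describe letters only.

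CDH1, the main epithelial cadherin and a tumour suppressor of carcinomas, was moderately higher in sphere cells. It stood at 238.18, 232.97 and 236.15 TPM in sphere libraries, against 172.97, 171.65 and 173.24 TPM in parental libraries. The lowest sphere value lay well above the highest parental value. The ratio of means was 1.37, and the log2 difference on log2(TPM + 1) was 0.45 (SE 0.032, limma adjusted p = 5.78e-07). CDH1 was among the abundant transcripts of both groups, at the 96.7 to 96.8 percentile of all listed genes in sphere and the 94.7 percentile in parental libraries.

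CDH3, the cadherin of basal keratinocytes, differed more than CDH1. Its level was 320.17, 306.77 and 313.98 TPM in sphere libraries, against 113.61, 110.45 and 110.55 TPM in parental libraries. The groups were far apart, with a ratio of means of 2.81 and a log2 difference of 1.48 (SE 0.035, limma adjusted p = 2.46e-10). The order of both cadherins thereby changed: CDH3 was at 1.34, 1.32 and 1.33 times the CDH1 level within the sphere libraries and at 0.657, 0.643 and 0.638 times within the parental libraries. CDH3 was thus the most abundant cadherin of the family in sphere cells, and CDH1 in parental cells.

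CDH2, the cadherin of neural and mesenchymal cells, was almost absent from sphere cells. It measured 0.23, 0.27 and 0.21 TPM in sphere libraries, against 12.29, 14.06 and 12.37 TPM in parental libraries. The ratio of means was 0.0183. The log2 difference was -3.49 (SE 0.090), and it depends on the pseudocount, being -5.27 on log2(TPM + 0.1). Relative to CDH1, CDH2 came to 0.0966, 0.116 and 0.0889% in sphere libraries and 7.11, 8.19 and 7.14% in parental libraries. N-cadherin transcripts were therefore a minor species beside E-cadherin in parental cells too.

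CDH5 (VE-cadherin), known as the cadherin of endothelial junctions, showed the same on-off form. It was at 0.03 TPM in the first sphere library and listed at 0 in the other two, against 11.19, 11.13 and 10.66 TPM in parental libraries. The log2 difference was -3.57 (SE 0.087), or -6.67 on log2(TPM + 0.1), and no ratio is given against libraries listed at 0. Other endothelial markers were low in both groups and did not share 1 direction. Of 13 markers 11 were in the table, and the 10 other than EGFL7 summed to 1.21 to 1.87 TPM in sphere and 1.78 to 2.63 TPM in parental libraries. PECAM1, the platelet-endothelial adhesion molecule, was at 0.05 to 0.09 TPM in sphere and 0.10 to 0.12 TPM in parental libraries. VWF, the von Willebrand factor, was at 0.14 to 0.17 TPM in sphere and 0.17 to 0.21 TPM in parental libraries. FLT1, a receptor of vascular growth factors, was listed at 0 in every sphere library and at 0.02 to 0.07 TPM in parental libraries. CD34, a sialomucin of endothelial and blood progenitor cells, was at 0.02 to 0.05 TPM in sphere and 0.90 to 1.42 TPM in parental libraries. ERG, an endothelial transcription factor, was at 0.61, 1.08 and 0.61 TPM in sphere and 0, 0.13 and 0.24 TPM in parental libraries. ROBO4, an endothelial guidance receptor, was at 0.35, 0.18 and 0.21 TPM in sphere and 0.05, 0.07 and 0 TPM in parental libraries. FLT1, PECAM1 and CD34 were thus lower, and ERG and ROBO4 higher, in sphere libraries without overlap, while VWF overlapped. EGFL7 alone passed the filter, at 11.47 ± 0.977 TPM in sphere and 9.7 ± 0.656 TPM in parental libraries (SD, n = 3 each).

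Markers of fibroblasts, which also carry CDH2 and CDH11, were mostly low. Of 7 markers 6 were in the table, and they summed to 15.63 to 17.22 TPM in sphere and 11.97 to 12.39 TPM in parental libraries, most of it COL1A1. COL3A1 was at 0.00 to 0.04 TPM in sphere libraries and listed at 0 in parental libraries. The markers did not share a direction. COL1A1 was higher, at 16.11 ± 0.892 TPM in sphere and 8.153 ± 0.0635 TPM in parental libraries (SD, n = 3 each). PDGFRB, a growth factor receptor of mesenchymal cells, was lower, at 0.08667 ± 0.0451 TPM in sphere and 2.63 ± 0.173 TPM in parental libraries (SD, n = 3 each). PDGFRB passed the filter through its parental level alone. Of 6 leukocyte markers, which were all in the table, CD68 made up most of the sum of 175 to 180.4 TPM in sphere and 46.78 to 51.84 TPM in parental libraries, and PTPRC, the pan-leukocyte antigen, was listed at 0 in all parental libraries and was at most 0.20 TPM in sphere libraries. The part of these markers in the cadherin values was not tested.

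CDH13 (T-cadherin or H-cadherin) lacks the cytoplasmic tail of the classical members and is held to the membrane by a lipid anchor, so it binds no catenin. It also serves as a receptor for adiponectin. CDH13 was at 42.93, 38.16 and 39.66 TPM in sphere libraries, against 5.28, 6.28 and 5.85 TPM in parental libraries. The ratio of means was 6.94, the widest rise among the 9 genes, with a log2 difference of 2.60 (SE 0.073, limma adjusted p = 7.47e-10). Even so it stayed a lesser cadherin, at the 78.5 to 80.3 percentile of listed genes in sphere and the 43.4 to 45.4 percentile in parental libraries.

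The 4 cadherins CDH1, CDH2, CDH3 and CDH5 summed to 559, 540 and 550 TPM in sphere libraries, against 310, 307 and 307 TPM in parental libraries. Other cadherins that bind catenins are not in this sum. Among them CDH24 was at 11.32 ± 0.714 TPM in sphere and 30.27 ± 1.91 TPM in parental libraries, above CDH2 and CDH5 in both groups. CDH3 made up 57.06 ± 0.254% of that sum in sphere and 36.21 ± 0.38% in parental libraries (SD, n = 3 each). CDH1 made up 42.9 ± 0.252% in sphere and 56.04 ± 0.372% in parental libraries. CDH2 contributed 0.04311 ± 0.00615% in sphere and 4.19 ± 0.335% in parental libraries. Within these 4 genes, the sphere sum was thus made of epithelial cadherins almost entirely, and CDH3 accounted for the larger part of the gain. These shares are a description and were not tested.

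**Figure D2:**
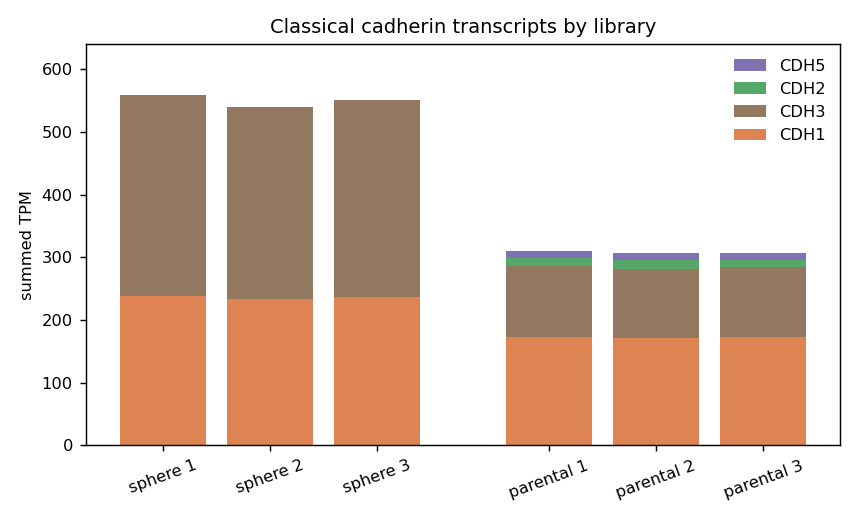
Stacked bars of the TPM of CDH1, CDH3, CDH2 and CDH5 in each library, sphere at left and parental at right, on a linear axis from 0. The bars reach 540 to 559 TPM in sphere and 307 to 310 TPM in parental libraries, and the thin CDH2 and CDH5 layers are visible only in parental libraries.

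The 3 catenins differed among themselves: CTNND1 was higher, CTNNB1 lower, and CTNNA1 did not pass. CTNNA1, the actin-binding catenin, was at 304.15, 315.08 and 319.9 TPM in sphere libraries, against 306.43, 314.6 and 312.45 TPM in parental libraries. These ranges overlapped, and the log2 difference of 0.01 (95% interval -0.07 to 0.09) did not pass (limma adjusted p = 0.826), whereas with median-of-ratios scaling it was 0.19 and passed (limma adjusted p = 5.93e-04). Under that scaling, which shifted the median of all tested genes by 0.16 on the log2 scale, 5 of the 9 genes were higher and 4 lower. At 313 ± 8.07 TPM in sphere and 311.2 ± 4.24 TPM in parental libraries (SD, n = 3 each), CTNNA1 was the most abundant of the 3 catenins in both groups.

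CTNNB1, both a junction protein and the effector of WNT signalling, was lower in sphere cells. It was at 137.17, 133.43 and 135.31 TPM in sphere libraries, against 183.74, 194.63 and 183.17 TPM in parental libraries. The groups were separate, with a ratio of means of 0.723 and a log2 difference of -0.46 (SE 0.038, limma adjusted p = 1.52e-06), or -0.29 with median-of-ratios scaling (limma adjusted p = 4.50e-05). Per unit of the 4 summed cadherins, CTNNB1 was at 0.246, 0.247 and 0.246 in sphere libraries and at 0.593, 0.633 and 0.597 in parental libraries.

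CTNND1, the catenin that stabilises cadherins at the membrane, was higher. It was at 249.32, 241.74 and 246.58 TPM in sphere libraries, against 145.85, 146.74 and 143.74 TPM in parental libraries. Every sphere value exceeded every parental value, with a ratio of means of 1.69 and a log2 difference of 0.75 (SE 0.033, limma adjusted p = 1.60e-08). CTNND1 alone kept nearly the same proportion to the summed cadherins, 0.4473 ± 0.000906 in sphere and 0.4721 ± 0.00477 in parental libraries (SD, n = 3 each). For CTNNA1 that proportion was 0.5697 ± 0.0219 in sphere and 1.01 ± 0.0191 in parental libraries.

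JUP, which can take the place of beta-catenin on the cadherin tail and also serves desmosomes, went the other way from CTNNB1. Its level was 760.19, 699.92 and 762.27 TPM in sphere libraries, against 160.79, 156.49 and 152.78 TPM in parental libraries, a ratio of means of 4.73 (log2 difference 2.23, limma adjusted p = 7.39e-11). JUP was above CTNNB1 in every sphere library and below it in every parental library. The ratio of JUP to CTNNB1 was 5.54, 5.25 and 5.63 in sphere libraries and 0.875, 0.804 and 0.834 in parental libraries. Counted together, CTNNB1 and JUP were at 1.594 ± 0.0453 per unit of the 4 summed cadherins in sphere and 1.116 ± 0.0242 in parental libraries (SD, n = 3 each).

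EPCAM, a surface adhesion molecule of simple epithelia and carcinomas that is often used to capture tumour cells, was lower in sphere cells. It was at 153.44, 174.51 and 151.32 TPM in sphere libraries, against 310.95, 301.52 and 319.59 TPM in parental libraries. The ratio of means was 0.514, with no overlap (log2 difference -0.96, SE 0.055, limma adjusted p = 1.10e-07).

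**Figure D3:**
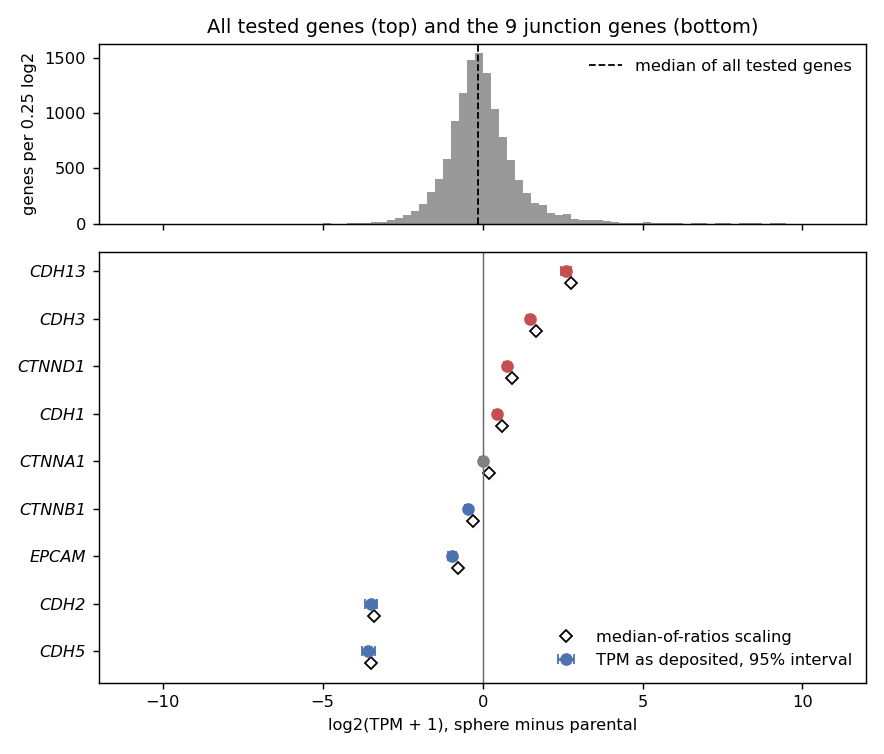
Top, histogram of the log2 difference of all 12261 tested genes on log2(TPM + 1), sphere minus parental, with its median as a dashed line. Bottom, the 9 genes with 95% limma intervals (red higher, blue lower, grey not passing) and the value under median-of-ratios scaling as open diamonds, from CDH13 at 2.60 to CDH5 at -3.57. The diamonds lie to the right of every filled point, and CTNNA1 is the only gene whose filled point lies at 0.

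Genes that work with this complex were read from 11 lists of 106 genes, of which 102 were in the table and 77 were tested. In all, 35 rose, 34 fell and 8 did not pass, so that 69 of 77 passed against 83.4% of all genes. The median log2 difference was -0.01, and that of all tested genes was -0.13. Of the 77 genes 6 passed the filter on low values through 1 group alone, CDH26 through its sphere level and CDH11, MMP7, TNFRSF19, ZEB2 and TCF4 through their parental level. These had to differ, so their calls and the counts and medians that hold them are descriptions.

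Among 17 other cadherins 15 were in the table and 12 of these stayed under 1 TPM in every library. Of the 3 tested, CDH26, a cadherin known from inflamed epithelium, was at 11.89, 11.62 and 11.15 TPM in sphere libraries, against 0.21, 0.18 and 0.16 TPM in parental libraries. It thus appeared in sphere cells at about the level that CDH5 and CDH2 had in parental cells. CDH24, a type II cadherin that binds catenins, fell to 11.86, 10.51 and 11.59 TPM in sphere libraries, against 31.89, 30.76 and 28.16 TPM in parental libraries (limma adjusted p = 4.12e-08). CDH11, the cadherin of osteoblasts and other mesenchymal cells, was at 1.12, 0.80 and 0.93 TPM in sphere libraries, against 3.27, 3.69 and 2.69 TPM in parental libraries.

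Of 5 tested catenin relatives 2 rose and 3 fell (median log2 difference -0.33). Besides JUP, the riser was CTNNBIP1, an inhibitor that keeps beta-catenin off its transcription factors, at 161.1 ± 14.7 TPM in sphere and 29.87 ± 4.24 TPM in parental libraries (SD, n = 3 each; ratio of means 5.39, limma adjusted p = 8.42e-09). ARVCF, a relative of p120-catenin, fell to 8.35 ± 0.826 TPM in sphere libraries, against 14.18 ± 1.72 TPM in parental libraries.

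Nectins are immunoglobulin-type adhesion molecules that seed adherens junctions and bind afadin. Their list, which also held afadin itself (AFDN), PVR and CADM4, was split. Of 7 tested 3 rose and 4 fell (median log2 difference -0.34). NECTIN4, a carcinoma surface antigen, was at 84.37, 83.31 and 85.16 TPM in sphere libraries, against 3.10, 3.25 and 4.24 TPM in parental libraries, a log2 difference of 4.24 (limma adjusted p = 1.15e-10). NECTIN1 was at 90.48 ± 0.452 TPM in sphere and 23.17 ± 1.66 TPM in parental libraries, and the adaptor AFDN at 62.59 ± 1.79 TPM in sphere and 43.68 ± 2.21 TPM in parental libraries. NECTIN2, NECTIN3, PVR and CADM4 fell by 0.53, 0.34, 0.40 and 0.62 on the log2 scale. The NECTIN3 call was lost with median-of-ratios scaling (limma adjusted p = 0.0706).

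Of 12 linkers between cadherins and the cytoskeleton 7 rose, 3 fell and 2 did not pass (median log2 difference 0.21). LIMA1 (EPLIN), which ties alpha-catenin to actin, rose to 242.5 ± 5 TPM in sphere libraries, against 107.8 ± 2.63 TPM in parental libraries. VCL (vinculin), recruited to alpha-catenin under tension, fell to 137 ± 4.01 TPM in sphere libraries, against 168.2 ± 3.79 TPM in parental libraries. PLEKHA7, which anchors microtubules to p120-catenin, had the largest fall of this list, with 4.697 ± 0.263 TPM in sphere and 17.96 ± 0.982 TPM in parental libraries. The calls of LIMD1, FMN1 and TJP1 were weak (limma adjusted p = 0.0493, 0.0415 and 0.0211) and were lost when single libraries were left out: LIMD1 without each library but parental replicate 1, FMN1 without parental replicate 2 or any sphere library, and TJP1 without replicate 1 of either group. The adjusted p was at most 0.168 in these fits.

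Of 12 genes of cadherin maturation, cleavage and endocytosis 5 rose, 6 fell and 1 did not pass (median log2 difference -0.09). FURIN, a protease that can remove the cadherin propeptide, rose to 93.65 ± 3.54 TPM in sphere libraries, against 46.19 ± 2.22 TPM in parental libraries. ADAM10, the sheddase of E-cadherin, fell to 65.77 ± 1.89 TPM in sphere libraries, against 84.35 ± 1.53 TPM in parental libraries. CBLL1 (Hakai), a ubiquitin ligase of E-cadherin, fell to 12.52 ± 0.697 TPM in sphere libraries, against 19.5 ± 0.213 TPM in parental libraries. NUMB rose to 75.8 ± 2.11 TPM in sphere libraries, against 42.86 ± 0.958 TPM in parental libraries. HGS rose to 110.9 ± 4.15 TPM in sphere libraries, against 91.26 ± 3.31 TPM in parental libraries. MMP7, a matrix protease that can cut E-cadherin, was at 0.37, 0.74 and 1.5 TPM in sphere and 3.01, 3.65 and 2.46 TPM in parental libraries.

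Around beta-catenin, 5 of 10 destruction complex genes rose, 3 fell and 2 did not pass (median log2 difference 0.20). BTRC, the ubiquitin ligase subunit that recognises phosphorylated beta-catenin, was at 29.02 ± 0.48 TPM in sphere and 10.17 ± 0.708 TPM in parental libraries, and GSK3B, a kinase of beta-catenin, at 41.33 ± 1.2 TPM in sphere and 20.86 ± 0.368 TPM in parental libraries. TNKS, a tankyrase that marks axin for degradation, fell to 8.56 ± 0.342 TPM in sphere libraries, against 17.04 ± 0.526 TPM in parental libraries. The other tankyrase, TNKS2, rose to 51.29 ± 1.03 TPM in sphere libraries, against 38.49 ± 2.1 TPM in parental libraries. GSK3A fell to 62.79 ± 1.1 TPM in sphere libraries, against 84.11 ± 3.48 TPM in parental libraries. AMER1 fell as well, and APC and FBXW11 did not pass. The scaffold AXIN1 rose by a log2 difference of 0.73.

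Of 8 nuclear partners of beta-catenin 6 were tested, and LEF1 and PYGO1 were under the filter. Of the 6 tested none rose, 5 fell and TCF7L1 did not pass (median log2 difference -0.24), where 35.1% of all genes were higher and 48.2% lower, but with median-of-ratios scaling only 2 fell, BCL9 and TCF7. BCL9, a coactivator, was at 4.767 ± 0.27 TPM in sphere and 11.84 ± 0.163 TPM in parental libraries, and TCF7 at 4.24 ± 0.498 TPM in sphere and 7.953 ± 0.77 TPM in parental libraries. The calls of BCL9L and PYGO2 (limma adjusted p = 0.0453 and 0.0379) were lost without most single libraries: 3 of the list fell without parental replicate 3, sphere replicate 2 or sphere replicate 3. Of 9 common target genes 6 stayed under 1 TPM in every library, AXIN2 among them at 0.00 to 0.05 TPM in sphere and 0.04 to 0.13 TPM in parental libraries. Of the 3 tested, RNF43 rose to 10.58 ± 0.641 TPM in sphere libraries, against 7.077 ± 0.537 TPM in parental libraries, while ZNRF3 fell by 0.54 on the log2 scale. TNFRSF19 was at 0.92 ± 0.211 TPM in sphere and 2.793 ± 0.43 TPM in parental libraries.

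Of 7 tested partners of EPCAM 5 rose and 2 fell (median log2 difference 0.43). The tetraspanin CD9 was at 624.4 ± 23.6 TPM in sphere and 134.7 ± 4.64 TPM in parental libraries, with a log2 difference of 2.20. The membrane protease inhibitors SPINT1 and SPINT2 rose by log2 differences of 0.65 and 0.43. ST14 (matriptase), a protease that cleaves EPCAM, fell by 0.29 and the sheddase ADAM17 by 0.28 on the log2 scale. With median-of-ratios scaling ADAM17 did not pass (limma adjusted p = 0.103), leaving 5 higher and 1 lower. CLDN7, the claudin that binds EPCAM, was at 26.09 ± 0.679 TPM in sphere and 23.46 ± 1.24 TPM in parental libraries (limma adjusted p = 0.0298, lost without parental replicate 2 or 3 or sphere replicate 2 or 3, at most 0.0974).

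Among transcription factors that repress CDH1, 2 of 6 tested rose and 4 fell (median log2 difference -1.01), ZEB2 and TCF4 among the falls having passed the filter through their parental level alone. ZEB2 was at 0.06, 0.15 and 0.07 TPM in sphere libraries, against 4.73, 5.22 and 4.76 TPM in parental libraries, a contrast of the on-off kind seen for CDH2 and CDH5. SNAI1 was at 2.43, 1.83 and 1.78 TPM in sphere and 7.26, 9.38 and 6.85 TPM in parental libraries. TCF4 was at 0.22, 0.32 and 0.42 TPM in sphere and 4.12, 3.76 and 3.77 TPM in parental libraries. SNAI2 (SLUG) rose, to 82.21, 81.72 and 85.6 TPM in sphere libraries, against 14.8, 13.23 and 12.75 TPM in parental libraries, and was the most abundant of these repressors in sphere libraries. The list of 6 epithelial activators was not confined to transcription factors that activate CDH1, and held ESRP1 and OVOL1 too. Of the 6 genes 4 rose, none fell and 2 did not pass, where 35.1% of all genes were higher and 48.2% lower. So short a list was not tested as a set. OVOL1, which represses mesenchymal genes, was at 28.98 ± 0.695 TPM in sphere and 6.373 ± 0.343 TPM in parental libraries. ESRP1, the epithelial splicing regulator, was at 90.31 ± 2.82 TPM in sphere and 44.15 ± 3.41 TPM in parental libraries. The ELF3 call (limma adjusted p = 0.021) was lost without parental replicate 1, parental replicate 3 or sphere replicate 1 (at most 0.0835). GRHL2, a direct activator of CDH1, was at 20.14 ± 0.181 TPM in sphere and 20.94 ± 0.275 TPM in parental libraries (limma adjusted p = 0.326). With median-of-ratios scaling GRHL2 had a log2 difference of 0.12 (limma adjusted p = 0.046).

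**Figure D4:**
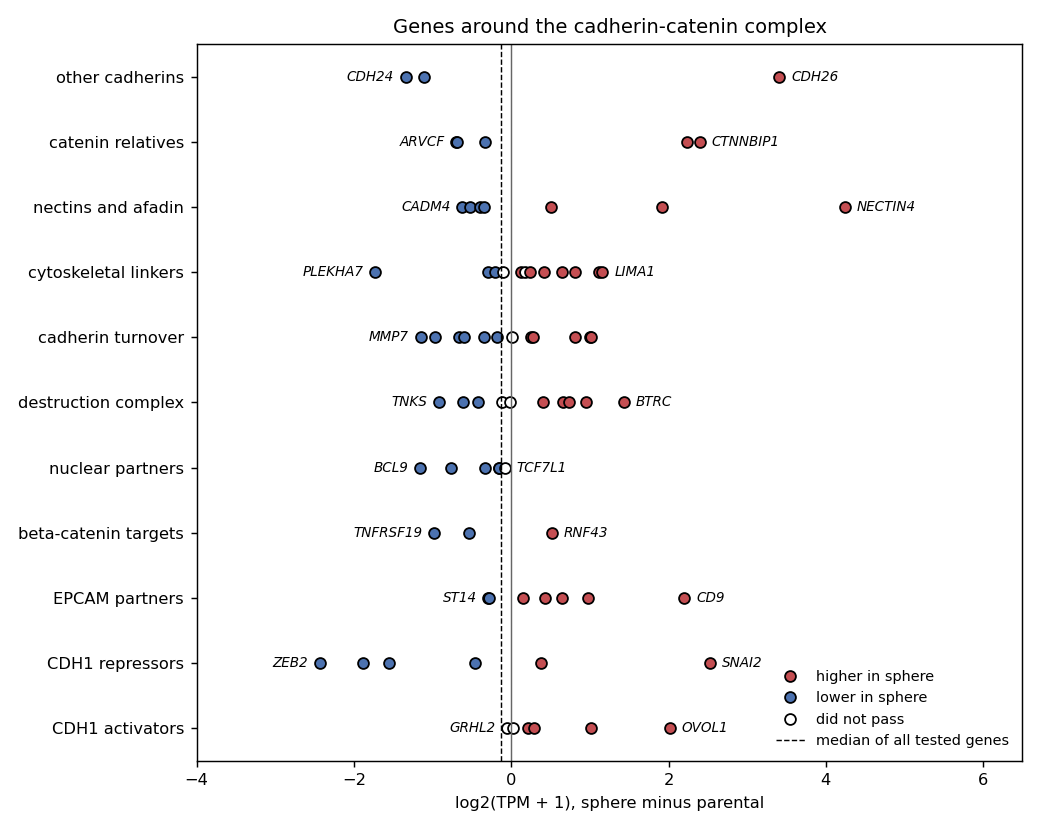
Log2 difference on log2(TPM + 1), sphere minus parental, of the 77 tested genes in 11 lists, with a row per list and a point per gene (red higher, blue lower, white not passing). The highest and lowest gene of each row are named, apart from the highest of cadherin turnover, the dashed line is the median of all tested genes (-0.13), and NECTIN4 at 4.24 and ZEB2 at -2.43 lie at the ends.

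In gene order, 4 of the 5 cadherins lie on chromosome 16, where CDH3 and CDH1 are direct neighbours, and CDH2 lies on chromosome 18. Genes around CDH1 moved in both directions: of the 10 tested genes nearest to CDH1, CDH3 among them, 4 rose and 6 fell, with a median log2 difference of -0.52. HAS3, a hyaluronan synthase the second tested gene past CDH1, rose by 2.67 on the log2 scale. Around CDH5, 2 of 10 neighbours rose and 5 fell (median -0.22), including CDH11, the next tested gene on one side. Around CDH13, 3 rose and 5 fell (median -0.13). Around CDH2, 7 of 10 rose and 1 fell (median 0.74). CDH2, which fell by 3.49 on the log2 scale, lies beside the desmosomal cadherin cluster. The next tested genes on that side, DSC3, DSC2 and DSG3, rose by 3.98, 3.28 and 4.21. DSG2, which follows them, rose by only 0.47, and SS18 on the other side fell by 0.29. DSG3 was at 162 TPM in sphere and 7.82 TPM in parental libraries on average. None of these position values was tested as a block.

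**Figure D5:**
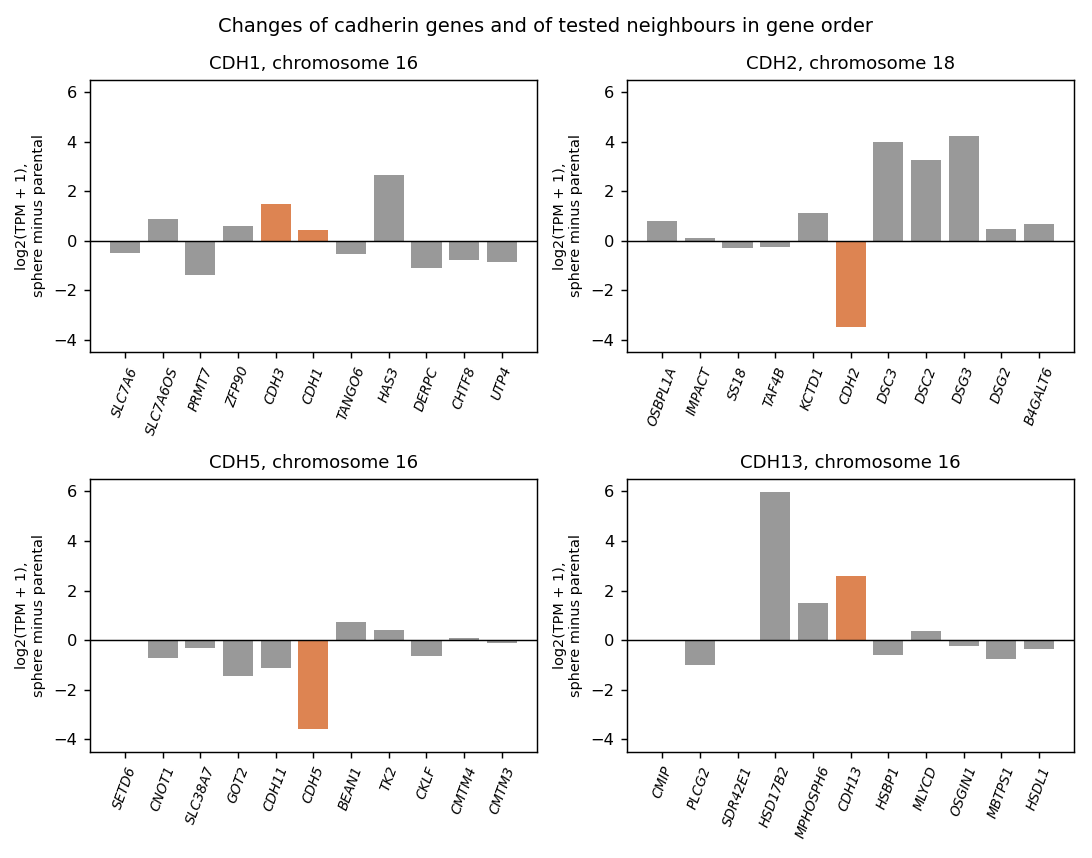
Log2 difference on log2(TPM + 1), sphere minus parental, of CDH1, CDH2, CDH5 and CDH13 (orange, as are other genes of the 9) and of the 5 nearest tested genes on each side (grey), in chromosomal order without distances. CDH2 at -3.49 stands beside DSC3, DSC2 and DSG3 at 3.28 to 4.21.

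The genes with the most similar values over the 6 libraries, by Euclidean distance on log2(TPM + 1), were PHPT1, DMKN and MYOF for CDH1 (distance 0.179, 0.204 and 0.219) and CAST, PLS3 and TAX1BP1 for CDH3 (0.205, 0.249 and 0.263). For CDH5 they were TUSC3, FSD1 and TUB (0.123, 0.291 and 0.419), each at no more than 0.07 TPM in any sphere library. For EPCAM they were STMN1, CBWD5 and HSPA9 (0.151, 0.171 and 0.195). CBWD5 has near-identical family members, so its share of reads is uncertain. With 2 groups, such likeness reflects the level and the group difference alone.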

How the data were processed

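Per the labels' protocols, RNA was isolated with Trizol and a BGISEQ-500 gave single-end reads of 50 bases. The authors deposited TPM for 17110 genes. HISAT, Bowtie2 and the mouse build GRCm38.p6 stand in the submitters' processing notes, although 17052 of the Entrez Gene IDs matched human RefSeq (GRCh38.p14). No gene coordinates are therefore given, and promoter positions are those of the RefSeq table. For the read counter, the annotation and strand, nothing was given in the sources used here. Overlapping genes and close copies are therefore uncertain. Columns named Control were taken as parental, with their own numbers as replicate numbers.

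The test was limma 3.58.1 (R 4.3.3) on log2(TPM + 1) for genes averaging 1 TPM or more across the 6 libraries (trended prior, sphere minus parental, two-sided, Benjamini-Hochberg over all 12261 genes, threshold 0.05). The fit was also run on simulated data in which few genes changed and all of them rose. Those data differ from the present ones, so that run does not bear on the calls here. Ratios, neighbours and promoters were computed in Python 3.11.15 with pandas 2.3.3. Settings varied singly were the pseudocount (0.1), the filter (absent, or 5 TPM), the scaling (median of ratios), the variance prior (robust), a block for replicate number, and omission of each library in turn.

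The members and the lists were chosen with earlier results of these data known. The rule for named genes takes the 9 genes, the largest rise and fall past the threshold in each list, and the 3 nearest profiles of CDH1, CDH3, CDH5 and EPCAM. Other genes, the neighbours among them, were named after their values were seen, and the ratios with JUP were added then. Some list genes are counted but not reported here by name.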

Additional observations from a re-analysis of the deposited data

How the results depend on the processing

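The log2 differences of CDH1, CDH2, CDH3, CDH5, CDH13, CTNNB1, CTNND1 and EPCAM kept their direction and their call in all 12 alternatives, with a largest adjusted p of 4.50e-05. For CDH2 and CDH5, which passed the filter through their parental level alone, this is a description. CTNNA1 passed only with median-of-ratios scaling, and its difference ranged from -0.01 to 0.19. In that setting all 9 genes passed. Genes past the threshold numbered 8485 to 11503 over the settings and 9832 to 10044 with 1 library left out, and 10173 (5273 higher, 4900 lower) with median-of-ratios scaling. Among list genes that passed with or without that scaling, it turned the sign of FBXW11 (0.16), BCL9L (0.02), PYGO2 (0.01) and GRHL2 (0.12). By construction it moves all sphere values relative to parental ones, by 0.16 at the median. With the replicate block 10192 genes and 8 of the 9 genes passed, and LIMD1, FMN1, PYGO2 and CLDN7 lost their call. Deviations from the group means correlated at 0.018, -0.018 and -0.055 between libraries sharing a number, so the numbers were not taken to pair them. The unknown depth limits values near 0 TPM, such as those of CDH2 and CDH5 in sphere libraries.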
